A study of Mus musculus with 15 samples.

Results

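The genes described here are 34 genes of the p53 response, listed by name: the gene of the transcription factor p53 itself, its feedback regulators, and genes that p53 is known to switch on. Of the 34 listed genes 33 had an array probe set that named that gene and no other, out of 19938 genes measured in this way. Trp53, which encodes p53, was not analysed here. Only Pvt1 had a choice of probe sets, and there the one with the higher mean was taken.

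The cells were cCFU-F, cardiac fibroblasts of the mouse that found colonies when plated sparsely. According to the labels they came from the hearts of 12-week-old male C57BL/6 mice and were sorted before culture for SCA1 and PDGFRα and against CD31. The 5 groups of 3 arrays each were small colonies treated with 50 ng/ml PDGF-AB at passage 15, untreated large colonies at passage 15, untreated large colonies at passage 5, small colonies treated with 50 ng/ml PDGF-AB at passage 5 and untreated small colonies at passage 5. PDGF-AB is a platelet-derived growth factor that binds the PDGF receptors α and β. There was no group of untreated small colonies at passage 15, so at that passage colony size and treatment cannot be told apart. The labels give no duration for the treatment. They also leave unsaid if replicate arrays stand for separate cultures or animals, so p-values here measure only array-to-array spread, possibly a technical one.

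As background, p53 is kept at a low level in unstressed cells by MDM2, which marks it for destruction, and by MDM4, which blocks its activity. DNA damage, replication stress and culture stress release it, and it then raises the transcription of genes that arrest the cell cycle, repair DNA, alter metabolism or kill the cell, together with Mdm2 itself as a negative feedback. In cultured fibroblasts p53 activity is a known barrier to long-term growth, and mouse lines that grow on in culture often lose it.

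The cells carried RNA of fibroblasts. Of 10 fibroblast markers 7 lay at or above the median gene level (6.02 on the log2 intensity scale) in treated small colonies at passage 15. In each other group 9 did, whereas 1 of 10 endothelial markers did in each group. Log2 differences of single fibroblast markers ran from -3.67 to 5.22 for large minus small untreated colonies at passage 5. For treated small minus untreated large colonies at passage 15 they ran from -5.14 to 1.43. In treated small colonies over passage they ran from -4.62 to 0.55. Pecam1, which encodes CD31, averaged between 4.29 and 4.59, and the leukocyte gene Ptprc between 3.86 and 4.12, where the lower quartile of the arrays lay at 4.06 to 4.23. Of 10 leukocyte markers 1 lay at or above the median gene level in treated small colonies at passage 15 and 2 or 3 in the other groups. Lyz2, the lysozyme gene of macrophages, averaged 5.35 in treated small colonies at passage 15 and between 8.46 and 9.14 in the other groups. The log2 of the summed intensities of the 10 leukocyte markers lay between 8.63 and 8.73 in treated small colonies at passage 15 and between 9.42 and 10.02 in the other groups, and that of 6 pericyte markers between 9.17 and 10.21 over all arrays. In such a sum the brightest gene weighs most, which among leukocyte markers was Lyz2 in the other groups. Of the 6 pericyte markers 5 reached the median gene level in large colonies of passage 15. In those of passage 5 it was 4, and in each group of small colonies 3. Single pericyte markers differed by -1.99 to 2.57 (log2) between the late groups, treated small minus untreated large. Between the untreated early groups, large minus small, they differed by -1.03 to 2.92. In treated small colonies they changed by -1.78 to 1.51 over passage. Of 10 cardiomyocyte markers 2 lay at or above the median gene level in each group. The log2 of the summed intensities of the 10 ran from 9.09 in untreated large colonies at passage 15 to 10.82 in treated small colonies at passage 5. Tnnt2, the cardiac troponin T gene and the brightest of the 10, averaged 7.32 and 10.38 in these groups. The part of these levels in the results was not tested. Against the label of male mice, Xist, whose RNA marks the silenced X in females, ranged over 8.93 to 10.88 in the 15 arrays, with 3 Y-linked genes at 2.24 to 3.40. Every result below rests on these 15 arrays, and whether this mismatch bears on any of them was not tested. In bulk RNA fewer cells with a transcript and less transcript per cell cannot be told apart.

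Promoter sequence from RefSeq (GRCm38.p6) was found for 25 of the 33 genes, as windows of 250 bases before and 50 bases after a transcription start. A p53 half-site, the short palindromic element of which p53 binds a pair, was present on either strand in 8 of these 25 windows (32%), against 8.37% of 27025 windows of all genes with a sequence. No window of the 25 held a pair of half-sites with a spacer of at most 13 bases (0.0592% of all windows did), and known p53 sites often lie outside such windows. The CHR element TTTGAA, through which cell cycle promoters are repressed outside of division, was present in 5 of 25 windows (20%), in 18.1% of all windows and in 10 of 14 windows of cell division genes. Upstream stretches of 4 genes are printed below because their genes carry the main patterns: Mdm2 and Ccng1 fell with passage in both colony types, Gadd45a changed unequally with passage in the colony lines by the test of the difference, and Ckap2 rose with passage in both. Each line gives the 250 bases before the start, 5′ to 3′ on the gene's strand, with p53 half-sites and the CHR element in capitals.
Mdm2 (chr10:117710759-117711008, minus strand): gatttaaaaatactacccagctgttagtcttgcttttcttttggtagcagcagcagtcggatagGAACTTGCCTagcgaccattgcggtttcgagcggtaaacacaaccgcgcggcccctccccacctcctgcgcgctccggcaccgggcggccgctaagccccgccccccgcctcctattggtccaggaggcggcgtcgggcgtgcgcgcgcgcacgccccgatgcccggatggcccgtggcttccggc
Ccng1 (chr11:40755287-40755536, minus strand): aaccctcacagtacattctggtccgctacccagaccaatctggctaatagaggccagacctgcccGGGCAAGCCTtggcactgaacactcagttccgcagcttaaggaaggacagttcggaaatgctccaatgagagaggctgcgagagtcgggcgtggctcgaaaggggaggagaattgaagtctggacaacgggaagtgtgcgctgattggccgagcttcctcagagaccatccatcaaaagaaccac
Gadd45a (chr6:67037408-67037657, minus strand): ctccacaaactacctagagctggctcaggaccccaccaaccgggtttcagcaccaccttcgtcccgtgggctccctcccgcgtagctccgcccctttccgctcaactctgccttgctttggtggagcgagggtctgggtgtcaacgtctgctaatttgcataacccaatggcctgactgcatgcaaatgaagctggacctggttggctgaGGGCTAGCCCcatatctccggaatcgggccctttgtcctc
Ckap2 (chr8:22185820-22186069, minus strand): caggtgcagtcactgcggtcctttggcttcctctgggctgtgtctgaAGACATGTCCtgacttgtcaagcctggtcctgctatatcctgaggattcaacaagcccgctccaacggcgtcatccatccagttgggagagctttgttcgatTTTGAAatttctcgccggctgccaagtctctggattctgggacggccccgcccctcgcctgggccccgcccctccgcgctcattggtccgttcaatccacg
Counted from the transcription start, the half-site began at position -186 in Mdm2, -185 in Ccng1, -40 in Gadd45a and -203 in Ckap2, and the CHR element of Ckap2 began at -101. Neither Btg2 nor Fas, the genes with the widest range of levels, had a half-site in its window. A match describes the letters only and does not show that p53 binds there.

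Of the 33 genes of the p53 response 31 had a mean over all arrays at or above the median gene level. Their means ran from 4.74 for Perp, which with Ddb2 lay below it, to 12.05 for Ccng1. Group means of a gene spanned a median of 0.83 on the log2 scale, against 0.40 over all genes, and spanned more than 1 for 12 of 33 genes, against 13.5% of all genes. The widest spans were 3.02 for Fas, 2.72 for Btg2 and 2.23 for Ckap2. Treated small colonies at passage 15 had the lowest mean of the 5 groups for 16 of 33 genes, a share of 48.5% against 21.1% of all genes. They had the highest mean for 4 (12.1%, against 36.3% of all genes). Untreated large colonies at passage 5 had the highest mean for 10 genes (30.3%, against 18.1% of all genes). Untreated small colonies had the lowest mean for none of the 33, against 20.5% of all genes. These spans and shares were not worked out for genes at or above the median level alone, where 31 of the 33 lay. Of such genes 41.5% were called lower in treated small than in untreated large colonies at passage 15, against 24.2% of all genes. Called higher were 23.2% of such genes and 29.2% of all genes.

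**Figure D1:**
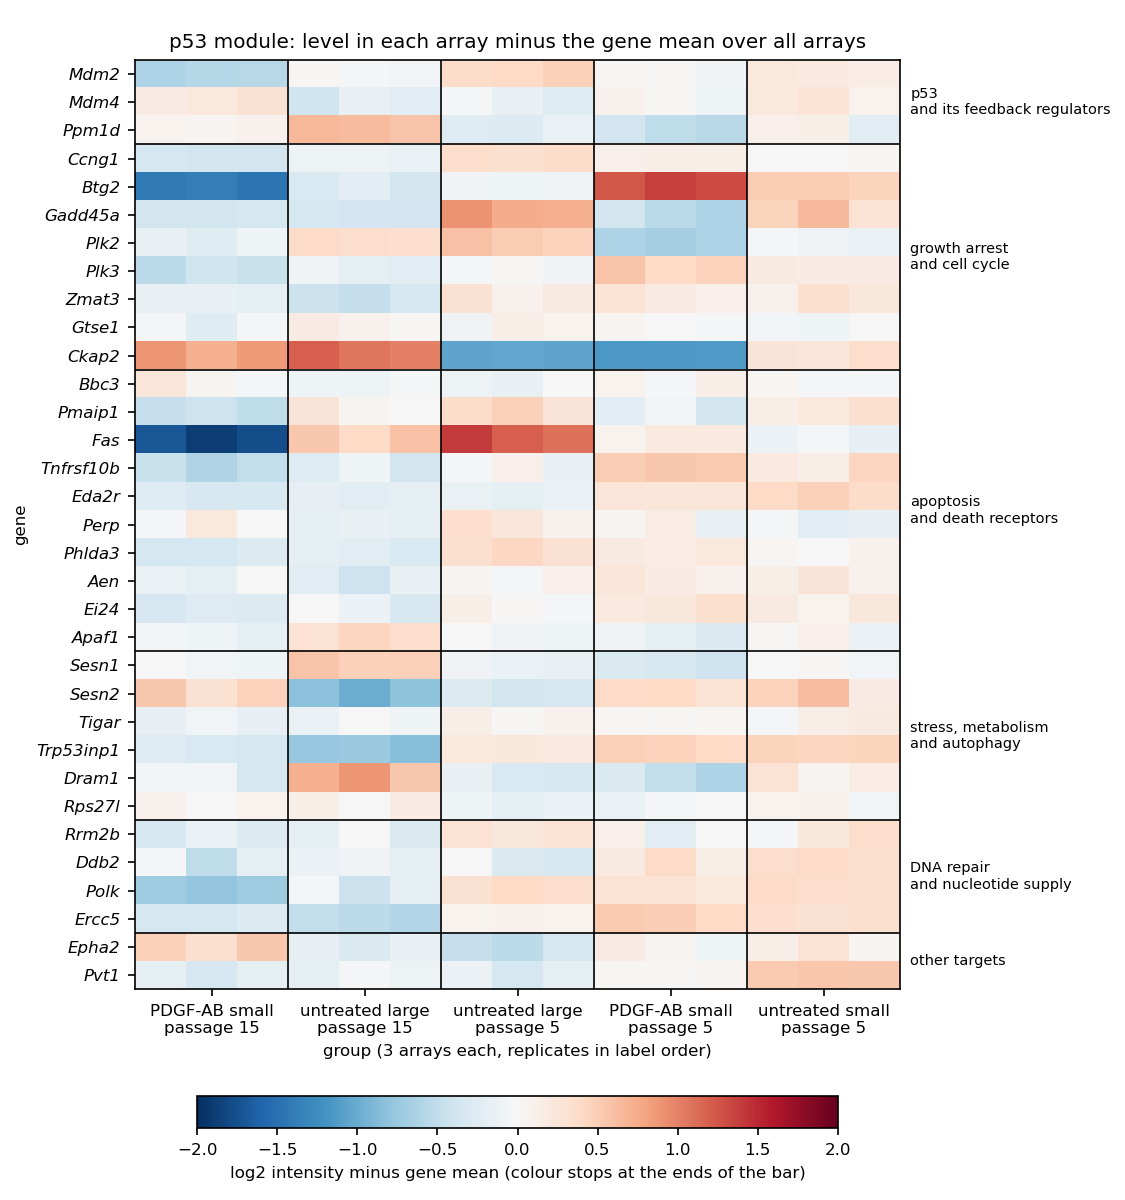
Heat map of the 33 genes in 15 arrays, with genes in rows ordered by role, arrays in columns by group, and colour giving the log2 intensity minus the gene's mean over all arrays. Fas and Btg2 are bluest in PDGF-AB treated small colonies at passage 15, and Ckap2 is red at passage 15 in both colony types.

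The first comparison asked what changed between passage 5 and passage 15 in untreated large colonies. Most genes of the p53 response that changed were lower at passage 15. The growth arrest gene Gadd45a fell 2.22-fold and the autophagy regulator Trp53inp1 fell 1.99-fold, while Ckap2, which encodes a spindle protein, rose 4.41-fold. In limma 7 of 33 genes were higher and 16 lower, against 17.4% and 18.7% of all genes tested. Among genes at or above the median level, where all but 2 of the 33 lay, 28.8% were higher and 28% lower. The median change of the 33 was -0.18, against -0.04 over all genes. In total 23 of 33 genes passed, against 36.1% of all genes and 56.9% of those at or above the median level, 2 of them with at least a 2-fold change (3.77% of all genes). The arrays of both groups were fully apart for 24 of 33 genes, against 44.5% of all genes. Here and in the later comparisons that share was not worked out for genes at or above the median level alone.

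Among the regulators of p53, Mdm2 (the ubiquitin ligase that degrades p53, and itself a p53 target) lay at 9.79, 9.73 and 9.70 at passage 15, against 10.12, 10.14 and 10.22 at passage 5 (log2 intensity; log2 difference -0.42, SE 0.055, adjusted p = 9.2e-06). All late arrays lay below all early ones. Ppm1d, which encodes the phosphatase WIP1 that switches off p53 signalling, moved the other way, with 9.48, 9.45 and 9.39 at passage 15, against 8.57, 8.55 and 8.69 at passage 5 (log2 difference 0.84, SE 0.079, adjusted p = 2.2e-07). Mdm4, the inhibitory partner of MDM2, had 7.45, 7.69 and 7.62 at passage 15, against 7.79, 7.69 and 7.59 at passage 5 and did not pass the test (log2 difference -0.11, SE 0.079, adjusted p = 0.325). Its 2 sets of arrays overlapped.

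Genes of growth arrest and the cell cycle, a list that includes Ckap2 and Gtse1, fell in 5 of 8 cases. The share that fell was 18.7% over all genes and 28% over those at or above the median level. Ccng1, which encodes cyclin G1 and had the highest level of the 33, lay at 11.95, 11.95 and 11.92 at passage 15, against 12.41, 12.38 and 12.42 at passage 5 (log2 difference -0.46, SE 0.047, adjusted p = 5.8e-07). Gadd45a, a stress sensor that halts the cell cycle, lay at 7.16, 7.12 and 7.11 at passage 15, against 8.40, 8.25 and 8.21 at passage 5 (log2 difference -1.15, SE 0.082, adjusted p = 8.0e-09). The groups did not overlap for either gene, and the early Gadd45a arrays spread more widely than the late ones. Zmat3, a zinc finger RNA-binding protein, lay at 8.23, 8.19 and 8.30 at passage 15, against 8.97, 8.75 and 8.84 at passage 5 (log2 difference -0.61, SE 0.073, adjusted p = 3.4e-06). Btg2, an antiproliferative cofactor, fell by 0.22. The polo-like kinase gene Plk2 fell by 0.16 (adjusted p = 0.0366), which did not hold without large passage 5 replicates 1 or 2 or large passage 15 replicates 1, 2 or 3 (adjusted p = 0.0518 to 0.136) or with only the compared groups in the fit (0.0785). Plk3 (-0.13) and Gtse1 (0.06) did not pass, though Plk3 passed after centring each array on its median (adjusted p = 0.0185). Ckap2 lay at 8.47, 8.33 and 8.28 at passage 15, against 6.22, 6.23 and 6.21 at passage 5 (log2 difference 2.14, SE 0.063, adjusted p = 1.2e-13), with no overlap.

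Of 10 genes of apoptosis and death receptors 5 fell and 1 rose, against 18.7% and 17.4% of all genes. Among genes at or above the median level 28% fell and 28.8% rose. Fas, the death receptor, lay at 7.78, 7.64 and 7.83 at passage 15, against 8.65, 8.44 and 8.35 at passage 5 (log2 difference -0.73, SE 0.078, adjusted p = 1.0e-06). Every late array was below every early one. Phlda3, an inhibitor of AKT signalling, fell by 0.58, Perp, a junction protein, by 0.39, and Aen, an apoptosis nuclease, by 0.30. Perp itself lay near the lower quartile of the arrays. Pmaip1, which encodes NOXA, fell by 0.27 (adjusted p = 0.0237), which did not hold without large passage 5 replicate 2 or large passage 15 replicates 2 or 3 (adjusted p = 0.0803 to 0.109). Apaf1, the scaffold of the apoptosome, rose, with 8.35, 8.49 and 8.41 at passage 15, against 8.05, 7.99 and 7.95 at passage 5 (log2 difference 0.42, SE 0.072, adjusted p = 1.7e-04). Bbc3, which encodes PUMA, Eda2r, Tnfrsf10b and Ei24 did not pass, with changes between -0.22 and 0.02. The death receptor gene Tnfrsf10b passed without large passage 5 replicate 3 or large passage 15 replicate 2 (adjusted p = 0.0201 to 0.0320), after centring each array on its median (0.0213), among genes at or above the median level (0.0304) and with trend and robust variance (0.0252), and Ei24 passed without large passage 15 replicate 1 (adjusted p = 0.0170), after centring each array on its median (0.0222), among genes at or above the median level (0.0415) and with trend and robust variance (0.0326).

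Stress and metabolism genes split, with 3 rises and 2 falls among 6, against 17.4% and 18.7% of all genes. Among genes at or above the median level 28.8% rose and 28% fell. Dram1, a lysosomal protein linked to autophagy, lay at 7.51, 7.68 and 7.33 at passage 15, against 6.65, 6.5 and 6.48 at passage 5 (log2 difference 0.97, SE 0.11, adjusted p = 1.4e-06). Sesn1, which encodes a sestrin that restrains mTORC1, lay at 8.26, 8.16 and 8.16 at passage 15, against 7.61, 7.56 and 7.53 at passage 5 (log2 difference 0.62, SE 0.055, adjusted p = 1.2e-07), whereas its relative Sesn2 fell by 0.54. Neither set of Dram1 or Sesn1 arrays overlapped. The third rise was in Rps27l, a ribosomal protein paralog (0.23). Trp53inp1 lay at 8.35, 8.37 and 8.25 at passage 15, against 9.32, 9.33 and 9.30 at passage 5 (log2 difference -0.99, SE 0.052, adjusted p = 1.6e-10), and Tigar, a regulator of glycolysis, did not pass (-0.15), though it passed after centring each array on its median (adjusted p = 0.0212) and among genes at or above the median level (0.0323). Of the repair genes, Ercc5, the nucleotide excision repair endonuclease XPG, lay at 7.29, 7.26 and 7.19 at passage 15, against 7.85, 7.87 and 7.85 at passage 5 (log2 difference -0.61, SE 0.053, adjusted p = 1.0e-07), and no late array reached an early one. The translesion polymerase gene Polk fell by 0.57 and Rrm2b, which supplies nucleotides for repair, by 0.43, while the damage sensor gene Ddb2 did not pass (0.09). The receptor kinase gene Epha2 rose by 0.24 (adjusted p = 0.0315), which did not hold without large passage 5 replicates 1 or 2 or large passage 15 replicates 1 or 3 (adjusted p = 0.0700 to 0.125) or after centring each array on its median (0.0751). The long noncoding RNA gene Pvt1 did not pass (0.11). The genes of chromosome 10, where Mdm2, Dram1, Sesn1, Apaf1 and Perp lie, were shifted by a median of 0.14 relative to all placed genes, and the part of that shift in their changes was not tested. On chromosome 15, where Rrm2b, Gtse1 and Pvt1 lie, the shift was 0.10, and its part was not tested either.

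Of the cell division genes in the same arrays 19 of 19 rose, with a median of 2.31, among them the cyclin gene Ccna2 (4.22) and the proliferation antigen gene Mki67 (2.77). In this comparison 17.4% of all genes rose and 18.7% fell, and 28.8% and 28% of those at or above the median level. Of 23 further p53 targets 3 rose and 11 fell, with a median of -0.14. The translesion polymerase gene Polh rose (0.81), and the antiproliferative gene Tob1 (-0.46) and the epoxide hydrolase gene Ephx1 (-0.35) fell. Of 24 activators and cofactors of p53, 10 rose and 4 fell, with a median of 0.08. These included the repair gene Brca1 (2.33), the checkpoint kinase gene Chek1 (1.70) and its activator Topbp1 (1.12), all higher, and Cdkn2a, which encodes p16 and the MDM2 inhibitor p19ARF, lower (-0.44). The part of this rise of cell division genes in the values of the p53 response was not tested.

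The second comparison asked the same of small colonies treated with PDGF-AB. Here too more genes of the p53 response fell than rose. Btg2 was 6.6-fold lower at passage 15, Fas 3.82-fold lower and the death receptor gene Tnfrsf10b 2.04-fold lower, and Ckap2 was 3.87-fold higher. Of 33 genes 7 were higher and 18 lower, against 24.6% and 21.4% of all genes, and 29.8% and 36% of those at or above the median level. The median change was -0.24, against 0.05 over all genes. In total 25 of 33 genes passed, against 46% of all genes and 65.8% of those at or above the median level, 4 of them with at least a 2-fold change (5.26% of all genes). The arrays of both groups were fully apart for 25 of 33 genes, against 54.9% of all genes.

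Mdm2 lay at 9.13, 9.18 and 9.20 at passage 15, against 9.79, 9.77 and 9.67 at passage 5 (log2 difference -0.58, SE 0.055, adjusted p = 1.7e-07). Mdm4 had 8.01, 8.04 and 8.14 at passage 15, against 7.92, 7.86 and 7.73 at passage 5 (log2 difference 0.23, SE 0.079, adjusted p = 0.0281), which did not hold without treated small passage 5 replicates 2 or 3 or treated small passage 15 replicates 2 or 3 (adjusted p = 0.0509 to 0.121) or after centring each array on its median (0.101). Ppm1d lay at 8.88, 8.88 and 8.90 at passage 15, against 8.43, 8.32 and 8.26 at passage 5 (log2 difference 0.55, SE 0.079, adjusted p = 1.9e-05). Late arrays were thus lower for Mdm2 and higher for its partner gene and for Ppm1d, with no overlap between passages in any of the 3.

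Among the 8 genes of growth arrest and the cell cycle 2 rose, Ckap2 being one of them, and 4 fell. Over all genes 24.6% rose and 21.4% fell, and at or above the median level 29.8% and 36%. Btg2 lay at 7.59, 7.63 and 7.54 at passage 15, against 10.24, 10.38 and 10.31 at passage 5 (log2 difference -2.72, SE 0.056, adjusted p = 1.0e-15), the widest gap between passages of any of the 33. Ccng1 lay at 11.70, 11.69 and 11.69 at passage 15, against 12.15, 12.19 and 12.17 at passage 5 (log2 difference -0.47, SE 0.047, adjusted p = 3.1e-07). Both genes had every late array below every early one. Plk3, a stress-responsive polo-like kinase, lay at 6.66, 6.78 and 6.73 at passage 15, against 7.76, 7.58 and 7.64 at passage 5 (log2 difference -0.94, SE 0.062, adjusted p = 2.1e-09), while Plk2, its relative, lay at 8.32, 8.22 and 8.39 at passage 15, against 7.85, 7.81 and 7.83 at passage 5 (log2 difference 0.48, SE 0.058, adjusted p = 3.1e-06). The passages separated fully for both kinases, in opposite directions. Ckap2 lay at 8.15, 7.97 and 8.12 at passage 15, against 6.13, 6.13 and 6.14 at passage 5 (log2 difference 1.95, SE 0.063, adjusted p = 1.9e-13), and Zmat3 fell by 0.34. Gadd45a (0.15, adjusted p = 0.162) and Gtse1 (-0.11) did not pass. Gtse1, which encodes a microtubule-binding protein made in G2 phase, stayed within 0.19 of itself across all 5 group means, while all 19 cell division genes rose here with a median of 2.78. Gtse1 was read by 1 probe set, and how well that probe set reports its transcript was not tested.

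Of the 10 genes of apoptosis and death receptors 7 fell and none rose. The shares that fell and rose were 21.4% and 24.6% of all genes. At or above the median level they were 36% and 29.8%. Fas lay at 5.53, 5.37 and 5.48 at passage 15, against 7.31, 7.43 and 7.43 at passage 5 (log2 difference -1.93, SE 0.078, adjusted p = 3.4e-12). Tnfrsf10b, the mouse receptor for the death ligand TRAIL, lay at 9.04, 8.89 and 9.0 at passage 15, against 9.98, 10.03 and 10.01 at passage 5 (log2 difference -1.03, SE 0.087, adjusted p = 4.2e-08). For both receptors the late arrays were all lower. The genes of chromosome 14, where Tnfrsf10b lies, were shifted by a median of -0.14 relative to all placed genes, and those of chromosome 19, where Fas lies, by 0.12, and the part of these shifts was not tested. Eda2r, a receptor of the TNF family, fell by 0.55, Ei24, an endoplasmic reticulum protein, by 0.54, Phlda3 by 0.51 and Aen by 0.27. The fall of Pmaip1 by 0.24 (adjusted p = 0.0299) did not hold without treated small passage 5 replicates 1 or 2 or treated small passage 15 replicates 1 or 3 (adjusted p = 0.0601 to 0.161). Bbc3, Perp and Apaf1 did not pass, with changes between 0.03 and 0.08.

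Repair genes fell in 3 of 4 cases, too few to set against the 21.4% of all genes that fell, or 36% at or above the median level. Polk lay at 7.49, 7.42 and 7.5 at passage 15, against 8.49, 8.48 and 8.42 at passage 5 (log2 difference -1.0, SE 0.077, adjusted p = 1.4e-08), with all late arrays lower. Ercc5 fell by 0.80 and Ddb2 by 0.47, and Rrm2b did not pass (-0.21, adjusted p = 0.0976) but passed without treated small passage 5 replicate 2 (adjusted p = 0.0336) and after centring each array on its median (0.0428). Of the stress and metabolism genes Trp53inp1 fell by 0.74. Sesn1 lay at 7.68, 7.63 and 7.60 at passage 15, against 7.40, 7.37 and 7.27 at passage 5 (log2 difference 0.29, SE 0.055, adjusted p = 3.5e-04), with the passages apart. Dram1 rose by 0.31 (adjusted p = 0.0234), which did not hold without treated small passage 5 replicates 2 or 3 or treated small passage 15 replicates 1 or 2 (adjusted p = 0.0643 to 0.108) or after centring each array on its median (0.0546). Tigar fell by 0.16 (adjusted p = 0.0425), which did not hold without treated small passage 5 replicates 1, 2 or 3 or treated small passage 15 replicates 1 or 3 (adjusted p = 0.0819 to 0.126), after cyclic loess (0.0581) or with trend and robust variance (0.0564). Sesn2 and Rps27l did not pass (0.08 and 0.11), though Rps27l passed after cyclic loess (adjusted p = 0.0235). Epha2 lay at 7.87, 7.71 and 7.93 at passage 15, against 7.56, 7.45 and 7.32 at passage 5 (log2 difference 0.40, SE 0.082, adjusted p = 7.8e-04), all higher late, and Pvt1 fell by 0.27.

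In treated small colonies 24.6% of all genes rose and 21.4% fell, and 29.8% and 36% of those at or above the median level. Of the 23 further p53 targets 4 rose and 14 fell, with a median of -0.31. They included the cytokine gene Lif (-1.66), Tob1 (-1.17) and the autophagy gene Trp53inp2 (-0.97). Among activators and cofactors 13 of 24 rose and 4 fell (median 0.21), with Brca1 (1.73) and Topbp1 (1.17) higher. The kinase gene Hipk2, whose product phosphorylates p53, was lower (-2.11). Mki67 was higher by 3.36 in the same arrays, and Cdkn2a did not pass (-0.16, adjusted p = 0.0974).

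**Figure D2:**
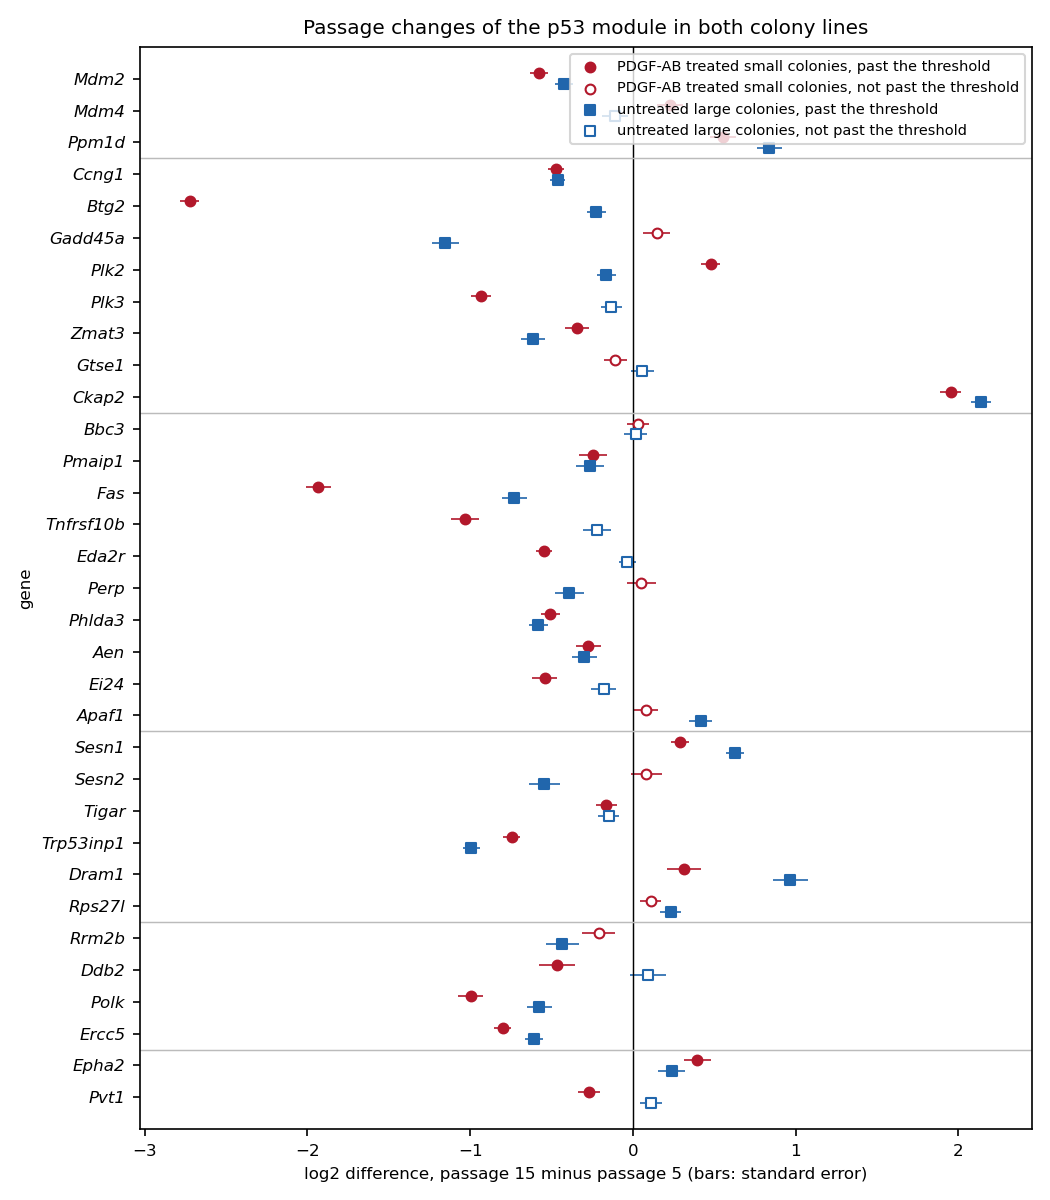
Log2 difference between passage 15 and passage 5 (horizontal axis) for each of the 33 genes, in PDGF-AB treated small colonies (red circles) and untreated large colonies (blue squares), with bars for the standard error and filled symbols for adjusted p under 0.05. Ckap2 lies far to the right in both lines, and Btg2 lies at -2.72 in treated small colonies and at -0.22 in untreated large ones.

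The passage comparisons share no arrays, so their calls can be set side by side. The genes lower at passage 15 in both colony lines were Mdm2, Ccng1, Btg2, Zmat3, Pmaip1, Fas, Phlda3, Aen, Trp53inp1, Polk and Ercc5, 11 genes, which is 61.1% of the 18 that fell in treated small colonies and 68.8% of the 16 that fell in untreated large colonies. Over all genes the overlap of falls was 47% of those in treated small colonies and 53.8% of those in untreated large ones. A larger share of the 33 than of all genes fell in each line. In untreated large colonies 16 of 33 fell, against 18.7% of all genes, and in treated small ones 18 of 33, against 21.4%. That alone raises the overlap of falls, so the overlap does not show that these genes were more alike between lines than other genes. Higher at passage 15 in both lines were Ckap2, Ppm1d, Sesn1, Dram1 and Epha2, 5 of the 7 that rose in each line (71.4%). Over all genes the overlap of rises was 40% of those in treated small colonies and 56.4% of those in untreated large ones. Plk2 was called in opposite directions, and its call in untreated large colonies was not kept in every alternative, as given above. The same holds for Pmaip1 in both lines, for Dram1 in treated small colonies and for Epha2 in untreated large ones, so 10 of the 11 shared falls and 3 of the 5 shared rises were kept in every alternative. Bbc3 and Gtse1 were called in neither.

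A direct test of the difference between the passage changes, as the change in treated small colonies minus the change in untreated large ones, passed for 18 of 33 genes, against 34.4% of all genes and 46.3% of those at or above the median level. Of the 18, 6 lay above 0 and 12 below. Of all genes 18.6% were above and 15.9% below, and of those at or above the median level 19.6% and 26.7%. Treatment and colony type differ together in this contrast and cannot be told apart. Btg2 differed most, by -2.50 (SE 0.080, adjusted p = 8.1e-13), since it changed by -2.72 in treated small colonies and by -0.22 in untreated large ones. Gadd45a differed by 1.30 (SE 0.12, adjusted p = 2.4e-07), as it fell in untreated large colonies and did not pass in treated small ones. Its late levels were 7.13, 7.14 and 7.16 in treated small colonies and 7.16, 7.12 and 7.11 in untreated large ones, whereas at passage 5 they were 7.13, 6.97 and 6.88 in treated small colonies and 8.40, 8.25 and 8.21 in untreated large ones. The arrays of the lines were apart at passage 5, and at passage 15 they overlapped and no difference was detected (log2 difference 0.01, SE 0.082). Fas differed by -1.20, Plk3 by -0.80, Plk2 by 0.64 and Eda2r by -0.51, with adjusted p of 3.1e-07, 2.3e-06, 1.3e-05 and 3.8e-05. For Mdm2 (-0.15, adjusted p = 0.133), Ccng1 (-0.01, 0.916), Phlda3 (0.07, 0.502) and Ckap2 (-0.19, 0.113) no difference between the lines was detected. Mdm4 passed (0.33, adjusted p = 0.0297), which did not hold without large passage 5 replicate 1 or large passage 15 replicate 1 or treated small passage 5 replicate 3 or treated small passage 15 replicate 3 (adjusted p = 0.0672 to 0.0821). Ppm1d (-0.29), Zmat3 (0.27) and Ercc5 (-0.19) missed the threshold in the test of all arrays. Ppm1d passed without large passage 5 replicate 3 or treated small passage 5 replicate 3 (adjusted p = 0.0451 to 0.0479), among genes at or above the median level (0.0311), with only the compared groups in the fit (0.0219) and with trend and robust variance (0.0261). Zmat3 passed without large passage 5 replicate 2 or large passage 15 replicate 3 or treated small passage 5 replicate 1 (adjusted p = 0.0291 to 0.0471), after cyclic loess (0.0280), among genes at or above the median level (0.0274), with only the compared groups in the fit (0.0435) and with trend and robust variance (0.0264). Ercc5 passed without large passage 15 replicate 3 or treated small passage 5 replicate 3 or treated small passage 15 replicate 3 (adjusted p = 0.0355 to 0.0471), after centring each array on its median (0.0439) and among genes at or above the median level (0.0251).

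**Figure D3:**
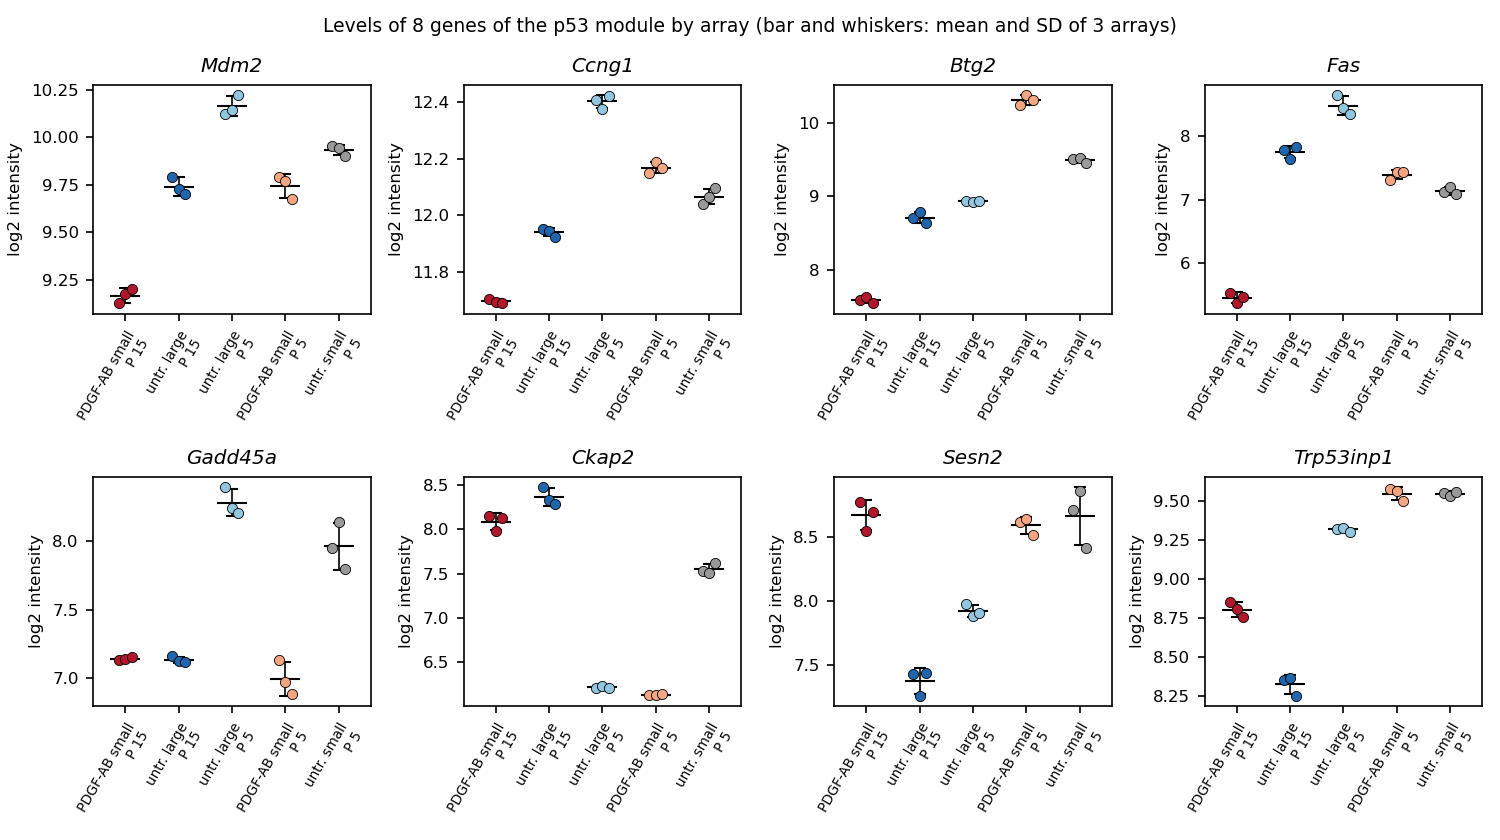
Log2 intensity of 8 genes of the p53 response in each of 15 arrays (points), by group, with the mean and SD of 3 arrays (bar and whiskers); the vertical axes differ between panels and do not start at 0. Mdm2, Ccng1, Btg2 and Fas are lowest in PDGF-AB treated small colonies at passage 15, and Sesn2 and Trp53inp1 are lowest in untreated large colonies at passage 15.

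The third comparison asked how small colonies at passage 5 responded to PDGF-AB. Genes of the p53 response changed in both directions. Btg2 rose 1.76-fold with PDGF-AB, while Ckap2 fell 2.67-fold and Gadd45a 1.96-fold. Of 33 genes 5 were higher and 10 lower, against 10.7% and 18.2% of all genes, and 13.8% and 31% of those at or above the median level, so the share that fell was close to that of other genes of similar level. The median change was -0.09, against 0.02 over all genes. In total 15 of 33 genes passed, against 28.9% of all genes and 44.8% of those at or above the median level, 1 of them with at least a 2-fold change (1.39% of all genes). The arrays of both groups were fully apart for 18 of 33 genes, against 43% of all genes.

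Of the regulators, Ppm1d fell by 0.49 and Mdm2 had 9.79, 9.77 and 9.67 with PDGF-AB, against 9.95, 9.95 and 9.90 without it (log2 difference -0.19, SE 0.055, adjusted p = 0.0152). The call of Mdm2 did not hold without untreated small passage 5 replicate 1 or treated small passage 5 replicate 3 (adjusted p = 0.0517 to 0.0766) or after cyclic loess (0.0521). Mdm4 had 7.92, 7.86 and 7.73 with PDGF-AB, against 8.04, 8.11 and 7.91 without it and did not pass (log2 difference -0.18, SE 0.079, adjusted p = 0.0966), though it passed without untreated small passage 5 replicate 3 (adjusted p = 0.0468). Its arrays overlapped.

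Genes of growth arrest and the cell cycle split, with 2 rises and 3 falls among 8, Ckap2 being one of the falls. Over all genes 10.7% rose and 18.2% fell, and at or above the median level 13.8% and 31%. Btg2 lay at 10.24, 10.38 and 10.31 with PDGF-AB, against 9.51, 9.52 and 9.45 without it (log2 difference 0.82, SE 0.056, adjusted p = 1.4e-08). Plk3 rose too, with 7.76, 7.58 and 7.64 with PDGF-AB, against 7.37, 7.34 and 7.34 without it (log2 difference 0.31, SE 0.062, adjusted p = 0.00127). For both Btg2 and Plk3 the treated arrays were all higher. Plk3 lies on chromosome 4, whose genes shifted by a median of 0.20 relative to all placed genes in this comparison, and the part of that shift in its change was not tested. Gadd45a lay at 7.13, 6.97 and 6.88 with PDGF-AB, against 7.95, 8.14 and 7.80 without it (log2 difference -0.97, SE 0.082, adjusted p = 1.9e-07). Plk2 lay at 7.85, 7.81 and 7.83 with PDGF-AB, against 8.43, 8.39 and 8.34 without it (log2 difference -0.55, SE 0.058, adjusted p = 2.1e-06). Treated arrays were all lower for this pair. Ccng1 had 12.15, 12.19 and 12.17 with PDGF-AB, against 12.04, 12.06 and 12.10 without it and did not pass (log2 difference 0.10, SE 0.047, adjusted p = 0.117), although the groups did not overlap. It passed after centring each array on its median (adjusted p = 0.0406), among genes at or above the median level (0.0455) and with trend and robust variance (0.00889). Ckap2 lay at 6.13, 6.13 and 6.14 with PDGF-AB, against 7.53, 7.51 and 7.62 without it (log2 difference -1.42, SE 0.063, adjusted p = 5.9e-11), and the 19 cell division genes all fell, with a median of -0.99 and a change of -1.11 in Mki67. Zmat3 (-0.04) and Gtse1 (0.06) did not pass.

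Dram1 lay at 6.51, 6.30 and 6.18 with PDGF-AB, against 7.09, 6.85 and 6.94 without it (log2 difference -0.63, SE 0.11, adjusted p = 2.8e-04), and Sesn1 fell by 0.32. Neither Sesn2, Tigar, Trp53inp1 nor Rps27l passed, with changes between -0.09 and 0.00. Pvt1 lay at 7.75, 7.75 and 7.79 with PDGF-AB, against 8.26, 8.28 and 8.27 without it (log2 difference -0.50, SE 0.067, adjusted p = 3.1e-05). Treated arrays were all lower for Dram1 and Pvt1. Pvt1 lies on chromosome 15, whose genes shifted by a median of -0.13 relative to all placed genes in this comparison, and the part of that shift in the change of Pvt1 was not tested. Pmaip1 fell by 0.44.

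The remaining calls of this comparison were small and did not hold when some single arrays were left out. Tnfrsf10b lay at 9.98, 10.03 and 10.01 with PDGF-AB, against 9.68, 9.61 and 9.91 without it (log2 difference 0.27, SE 0.087, adjusted p = 0.0269), which did not hold without untreated small passage 5 replicates 1 or 2 or treated small passage 5 replicates 2 or 3 (adjusted p = 0.0666 to 0.130). Fas had 7.31, 7.43 and 7.43 with PDGF-AB, against 7.12, 7.20 and 7.08 without it (log2 difference 0.26, SE 0.078, adjusted p = 0.0211), which did not hold without untreated small passage 5 replicates 1 or 3 or treated small passage 5 replicates 2 or 3 (adjusted p = 0.0571 to 0.0725). The groups did not overlap for either receptor. Ercc5 lay at 8.31, 8.28 and 8.19 with PDGF-AB, against 8.12, 8.09 and 8.11 without it (log2 difference 0.15, SE 0.053, adjusted p = 0.0394), which did not hold without untreated small passage 5 replicates 1, 2 or 3 or treated small passage 5 replicates 1 or 2 (adjusted p = 0.0679 to 0.126), with only the compared groups in the fit (0.0801) or with a replicate block (0.0521). Eda2r fell by 0.17 (adjusted p = 0.0213), which did not hold without untreated small passage 5 replicate 2 or treated small passage 5 replicates 2 or 3 (adjusted p = 0.0508 to 0.104), after centring each array on its median (0.0594), after cyclic loess (0.251) or with only the compared groups in the fit (0.0568). Without single arrays the count of higher genes fell to between 2 and 4. The other 6 genes of the apoptosis group besides Pmaip1, Fas, Tnfrsf10b and Eda2r, the repair genes Rrm2b, Ddb2 and Polk, and Epha2 did not pass, with changes between -0.23 and 0.15. Apaf1, one of these, passed without untreated small passage 5 replicate 3 or treated small passage 5 replicate 1 (adjusted p = 0.0220 to 0.0286), among genes at or above the median level (0.0292), with trend and robust variance (0.0408) and with a replicate block (0.0391), and Rrm2b passed without untreated small passage 5 replicate 1 (adjusted p = 0.0257). Phlda3, whose groups did not overlap, passed after centring each array on its median (adjusted p = 0.0198), after cyclic loess (0.0165), among genes at or above the median level (0.0277) and with trend and robust variance (0.0162).

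With PDGF-AB 10.7% of all genes rose and 18.2% fell, and 13.8% and 31% of those at or above the median level. Among the further p53 targets 2 of 23 rose and 9 fell (median -0.10). Pidd1, the scaffold of the PIDDosome, rose (0.64), and the nuclear body gene Pml (-0.35) and the lipase gene Abhd4 (-0.25) fell. Of the activators and cofactors 3 of 24 rose and 10 fell (median -0.18). Hipk2 (0.73) rose, as did Ppp1r13l (0.52), which encodes the p53 inhibitor iASPP, and the break repair gene Rad50 fell (-0.31). Cdkn2a rose (0.38).

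The fourth comparison set large against small colonies, both untreated at passage 5, to find how the colony types differ at the start. The colony types differed in 22 of the 33 genes. Fas was 2.54-fold higher and Plk2 1.52-fold higher in large colonies, and Ckap2 was 2.51-fold, Pvt1 1.69-fold and Sesn2 1.67-fold lower. In all 7 genes were higher and 15 lower in large colonies, against 18.2% and 18% of all genes, and 26.2% and 29.1% of those at or above the median level. The median difference was -0.11, against 0.03 over all genes. In total 22 of 33 genes passed, against 36.2% of all genes and 55.3% of those at or above the median level, 2 of them with at least a 2-fold change (3.93% of all genes). The arrays of both groups were fully apart for 22 of 33 genes, against 44.9% of all genes.

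Mdm2 had 10.12, 10.14 and 10.22 in large colonies, against 9.95, 9.95 and 9.90 in small ones (log2 difference 0.23, SE 0.055, adjusted p = 0.00306). Mdm4 had 7.79, 7.69 and 7.59 in large colonies, against 8.04, 8.11 and 7.91 in small ones (log2 difference -0.33, SE 0.079, adjusted p = 0.00337). Every Mdm2 value in large colonies was above every value in small ones. Every Mdm4 value in large colonies was below every value in small ones. Ppm1d was lower by 0.22 in large colonies (adjusted p = 0.0368), which did not hold without large passage 5 replicates 1 or 2 or untreated small passage 5 replicates 1 or 2 (adjusted p = 0.0924 to 0.164) or with only the compared groups in the fit (0.112).

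Ccng1 lay at 12.41, 12.38 and 12.42 in large colonies, against 12.04, 12.06 and 12.10 in small ones (log2 difference 0.34, SE 0.047, adjusted p = 2.2e-05). Plk2 lay at 9.06, 8.98 and 8.92 in large colonies, against 8.43, 8.39 and 8.34 in small ones (log2 difference 0.60, SE 0.058, adjusted p = 2.7e-07). Gadd45a lay at 8.40, 8.25 and 8.21 in large colonies, against 7.95, 8.14 and 7.80 in small ones (log2 difference 0.32, SE 0.082, adjusted p = 0.00528). In these 3 growth arrest genes every large-colony array was above every small-colony one. Plk2 lies on chromosome 13, whose genes were shifted by a median of 0.24 in large colonies relative to all placed genes, and whether that shift is part of its difference was not tested. Gadd45a lies on chromosome 6, where the shift was 0.12, and its part in the Gadd45a difference was not tested either. Btg2 was lower by 0.56 and Plk3 by 0.19 (adjusted p = 0.0208), which did not hold without large passage 5 replicate 3 or untreated small passage 5 replicate 1 (adjusted p = 0.0614 to 0.0811). Ckap2 lay at 6.22, 6.23 and 6.21 in large colonies, against 7.53, 7.51 and 7.62 in small ones (log2 difference -1.33, SE 0.063, adjusted p = 3.4e-11), apart in all arrays. All 19 cell division genes were lower in large colonies, with a median of -0.84. Zmat3 and Gtse1 did not pass (-0.02 and 0.08).

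The death receptors differed in opposite directions. Fas lay at 8.65, 8.44 and 8.35 in large colonies, against 7.12, 7.20 and 7.08 in small ones (log2 difference 1.35, SE 0.078, adjusted p = 4.8e-10), and Eda2r at 7.96, 7.90 and 7.96 in large colonies, against 8.49, 8.57 and 8.47 in small ones (log2 difference -0.57, SE 0.051, adjusted p = 1.2e-07). Neither overlapped. Perp had 5.08, 4.98 and 4.82 in large colonies, against 4.72, 4.52 and 4.58 in small ones (log2 difference 0.35, SE 0.089, adjusted p = 0.00487), close to background, and Phlda3 was higher by 0.30. Tnfrsf10b was lower by 0.27 (adjusted p = 0.0227), which did not hold without large passage 5 replicate 3 or untreated small passage 5 replicate 3 (adjusted p = 0.113 to 0.123) or with only the compared groups in the fit (0.0601). It lies on chromosome 14, whose genes were shifted by a median of -0.16 in large colonies, while those of chromosome 10 (Mdm2, Dram1, Perp) were shifted by 0.10 and those of chromosome 19 (Fas) by 0.11. The part of these shifts was not tested. The other 5 genes of this group did not pass, with differences between -0.12 and 0.15.

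Sesn2 lay at 7.97, 7.89 and 7.91 in large colonies, against 8.71, 8.86 and 8.42 in small ones (log2 difference -0.74, SE 0.095, adjusted p = 8.1e-06), Epha2 at 6.94, 6.87 and 7.06 in large colonies, against 7.54, 7.68 and 7.45 in small ones (log2 difference -0.60, SE 0.082, adjusted p = 1.8e-05) and Pvt1 at 7.61, 7.38 and 7.54 in large colonies, against 8.26, 8.28 and 8.27 in small ones (log2 difference -0.76, SE 0.067, adjusted p = 1.1e-07). Large-colony arrays were the lower ones throughout for these 3 genes. The genes of chromosome 15, where Pvt1 lies, were shifted by a median of -0.32 in large colonies, and the part of that shift in the result was not tested. Dram1 was lower by 0.42, Trp53inp1 by 0.23, Ddb2 by 0.56 and Ercc5 by 0.25. Rps27l was lower by 0.17 (adjusted p = 0.0437), which did not hold without large passage 5 replicates 2 or 3 or untreated small passage 5 replicates 1 or 2 (adjusted p = 0.0865 to 0.152), after centring each array on its median (0.0697), with only the compared groups in the fit (0.0796) or with a replicate block (0.0536). Rps27l lies on chromosome 9, whose genes were shifted by a median of -0.16 in large colonies. The part of that shift in the Rps27l difference was not tested. Sesn1, Tigar, Rrm2b and Polk did not pass, with differences between -0.10 and 0.08. In large colonies 18.2% of all genes were higher and 18% lower. At or above the median level it was 26.2% and 29.1%. Of the further p53 targets 4 of 23 were higher and 6 lower (median -0.04), with Polh higher (0.69) and Lif (-0.78) and Pml (-0.31) lower. Of the activators and cofactors 4 of 24 were higher and 10 lower (median -0.11). Hipk2 (1.23) and Ppp1r13l (0.38), the gene of the p53 inhibitor iASPP, were higher. Usp7, the deubiquitinase of MDM2 and p53, was lower (-0.34). Cdkn2a was higher by 0.33 in large colonies.

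The last comparison set the late groups side by side, treated small against untreated large colonies at passage 15. Most called genes of the p53 response were lower in treated small colonies, where Fas was 4.91-fold, Btg2 2.17-fold and Dram1 1.82-fold lower. Sesn2 was 2.46-fold and Epha2 1.56-fold higher. Of 33 genes 7 were higher and 15 lower, against 29.2% and 24.2% of all genes, and 23.2% and 41.5% of those at or above the median level. Both shares among genes of that level were close to those of the 33. The median difference was -0.13, against 0.07 over all genes. In total 22 of 33 genes passed, against 53.4% of all genes and 64.8% of those at or above the median level, 3 of them with at least a 2-fold change (4.64% of all genes). The arrays of both groups were fully apart for 23 of 33 genes, against 60.7% of all genes.

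Mdm2 lay at 9.13, 9.18 and 9.20 in treated small colonies, against 9.79, 9.73 and 9.70 in untreated large ones (log2 difference -0.57, SE 0.055, adjusted p = 2.2e-07). Mdm4 lay at 8.01, 8.04 and 8.14 in treated small colonies, against 7.45, 7.69 and 7.62 in untreated large ones (log2 difference 0.48, SE 0.079, adjusted p = 1.0e-04). The groups were apart for both, in opposite directions. Ppm1d was lower by 0.55. Ccng1 had 11.70, 11.69 and 11.69 in treated small colonies, against 11.95, 11.95 and 11.92 in untreated large ones (log2 difference -0.24, SE 0.047, adjusted p = 4.1e-04), and Btg2 7.59, 7.63 and 7.54 in treated small colonies, against 8.71, 8.78 and 8.64 in untreated large ones (log2 difference -1.12, SE 0.056, adjusted p = 6.2e-11). All treated small arrays were lower for this pair. Zmat3 was higher, with 8.51, 8.51 and 8.47 in treated small colonies, against 8.23, 8.19 and 8.30 in untreated large ones (log2 difference 0.26, SE 0.073, adjusted p = 0.00733). Plk2, Plk3 and Ckap2 were lower by 0.52, 0.30 and 0.28. Gtse1 was lower by 0.19 (adjusted p = 0.0321), which did not hold without large passage 15 replicates 1 or 2 or treated small passage 15 replicate 2 (adjusted p = 0.0595 to 0.172), after cyclic loess (0.379) or with only the compared groups in the fit (0.0605). Of the 19 cell division genes 13 were higher and 1 lower in treated small colonies, with a median of 0.46.

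Fas lay at 5.53, 5.37 and 5.48 in treated small colonies, against 7.78, 7.64 and 7.83 in untreated large ones (log2 difference -2.29, SE 0.078, adjusted p = 3.3e-13), and Pmaip1 at 6.00, 6.05 and 5.96 in treated small colonies, against 6.72, 6.52 and 6.47 in untreated large ones (log2 difference -0.57, SE 0.087, adjusted p = 4.7e-05). Treated small colonies were lower in every array for both death genes. Apaf1 was lower by 0.46. Tnfrsf10b was lower by 0.27 (adjusted p = 0.0153), which did not hold without large passage 15 replicate 2 or treated small passage 15 replicate 2 (adjusted p = 0.0653 to 0.0846) or after cyclic loess (0.176). Perp was higher by 0.24 (adjusted p = 0.0361), which did not hold without large passage 15 replicates 1, 2 or 3 or treated small passage 15 replicate 2 (adjusted p = 0.0628 to 0.172) or after cyclic loess (0.756). The other 5 genes of this group did not pass, with differences between -0.15 and 0.16. Of these Bbc3 passed without treated small passage 15 replicate 3 (adjusted p = 0.0229), after centring each array on its median (0.0408) and among genes at or above the median level (0.0365), and Ei24 passed without large passage 15 replicate 3 (adjusted p = 0.0123). Aen passed after cyclic loess (adjusted p = 0.0169), and Eda2r passed among genes at or above the median level (adjusted p = 0.0457).

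Sesn2 lay at 8.78, 8.55 and 8.70 in treated small colonies, against 7.43, 7.26 and 7.44 in untreated large ones (log2 difference 1.30, SE 0.095, adjusted p = 8.1e-09), and Trp53inp1 at 8.85, 8.81 and 8.76 in treated small colonies, against 8.35, 8.37 and 8.25 in untreated large ones (log2 difference 0.48, SE 0.052, adjusted p = 1.1e-06). Epha2 lay at 7.87, 7.71 and 7.93 in treated small colonies, against 7.23, 7.11 and 7.25 in untreated large ones (log2 difference 0.64, SE 0.082, adjusted p = 7.0e-06). These 3 were higher in every treated small array, and all lie on chromosome 4, whose genes were shifted by a median of 0.23 relative to all placed genes in this comparison. Plk3 lies on chromosome 4 too and was lower, as given above. Dram1 lay at 6.74, 6.74 and 6.46 in treated small colonies, against 7.51, 7.68 and 7.33 in untreated large ones (log2 difference -0.86, SE 0.11, adjusted p = 4.3e-06), with no overlap, and Sesn1 was lower by 0.55. Mdm2, Dram1, Sesn1 and Apaf1 lie on chromosome 10, where the median shift was -0.29, and Fas on chromosome 19, where it was -0.22. Perp lies on chromosome 10 too and was higher, as given above. Polk was lower by 0.52, and it lies with Plk2 on chromosome 13, where the shift was -0.27. Ercc5 was higher by 0.21, and it lies with Mdm4 and Btg2 on chromosome 1, where the shift was 0.17. The part of these shifts in the gene values was not tested. The genes Rrm2b, Ddb2, Tigar, Rps27l and Pvt1 did not pass, with differences between -0.13 and -0.04. In treated small colonies 29.2% of all genes were higher and 24.2% lower. At or above the median level it was 23.2% and 41.5%. Of the further p53 targets 5 of 23 were higher and 13 lower (median -0.20), with lower levels of Tob1 (-0.97), Trp53inp2 (-0.71) and Lif (-0.83). Of the activators and cofactors 5 of 24 were higher and 7 lower (median -0.06), with Hipk2 (-1.97) and Brca1 (-0.73) lower and the coactivator gene Crebbp higher (0.53). Cdkn2a was higher by 0.33 in treated small colonies. The comparisons at passage 5 and at passage 15 share arrays with the passage comparisons, so their values are not independent of those above.

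**Figure D4:**
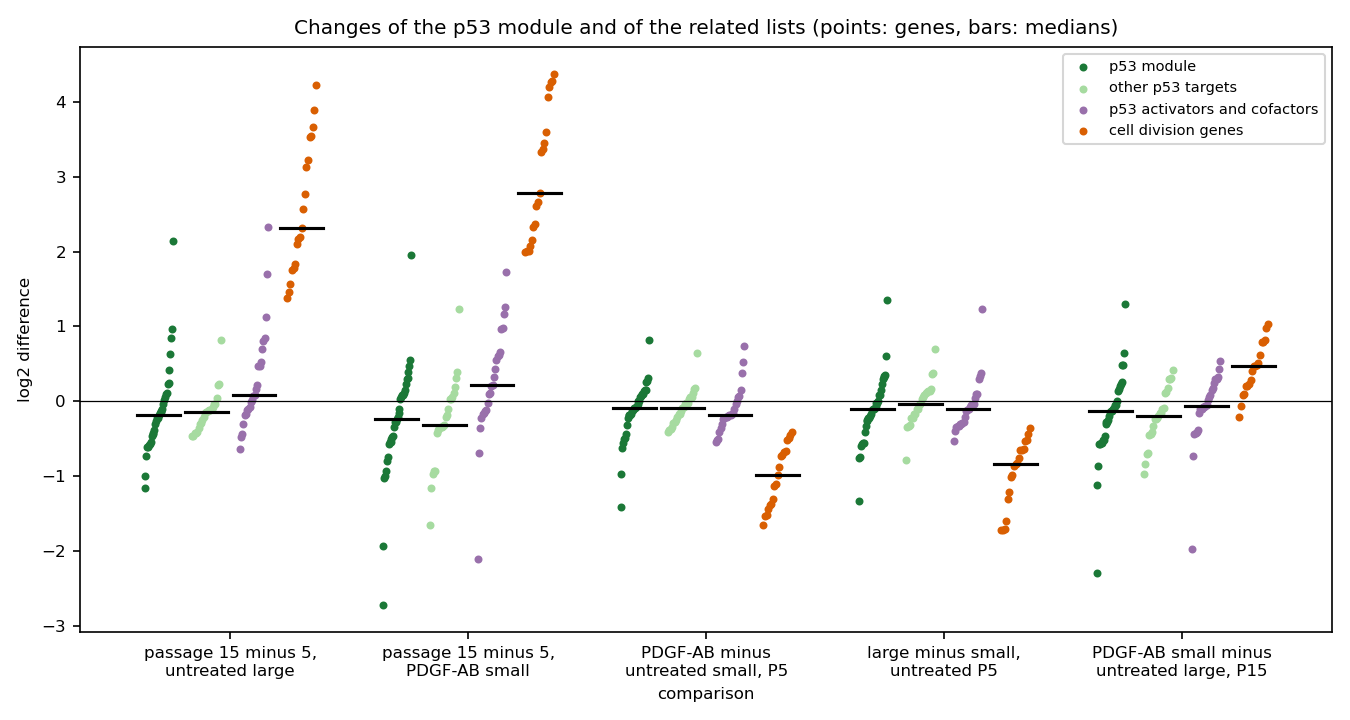
Log2 difference of each gene (points) in 5 comparisons (horizontal axis) for the p53 response, other p53 targets, p53 activators and cofactors, and cell division genes, with the median of each list as a black bar. The medians of the p53 response lie between -0.24 and -0.09, and those of the cell division genes between -0.99 and 2.78.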

How the data were processed

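RNA of 15 samples was hybridised to Affymetrix mouse gene arrays, 1 array a sample. The deposited values are log2 intensities, summarised per probe set by the authors. RMA and limma are named in the submitters' processing notes without version or role, and the raw scans were not used here. No other column of per-sample values was present. Of 28853 probe sets, 21789 named 1 gene and gave 19938 genes, of which the probe set with the highest mean stood for each. RefSeq names (GRCm38.p6) were matched by gene ID for 21698 of them and not for 91. A gene whose probe sets name a second gene as well, such as Cdkn1a, and Trp53 were not analysed here. The array medians lay between 5.59 and 5.72, and the number of arrays limits the precision.

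A linear model with 5 group means was fitted to all genes and all arrays with limma 3.58.1 in R 4.3.3 (lmFit, contrasts, eBayes), with Benjamini-Hochberg adjustment over 19938 genes and a threshold of 0.05. The script was tested on simulated data. The members of the module and the other lists were chosen with earlier results of these data known. Values in every array were given for Mdm2, Mdm4 and Ccng1 and for up to 5 called rises and 5 called falls of largest size whose groups did not overlap, and for the difference of passage changes 6 genes of smallest adjusted p were taken. Of the other lists up to 3 genes of smallest adjusted p were named, with Mki67 and Cdkn2a. Values of other genes were added after they were seen. Alternatives were array centring, cyclic loess, genes at or above the median level, only the compared groups, trend and robust variance, probe sets averaged, a replicate block, and leaving out each array. Other background corrections and scan batches could not be run without the scans. Replicate numbers are shared between groups, but the correlation of same-numbered arrays was over 0.1 for every number in none of 5 comparisons (in untreated large colonies over passage it was 0.208, 0.0984 and 0.202), so the numbers were not treated as pairs.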

Additional observations from a re-analysis of the deposited data

Results flagged for a closer look

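The passage change differed between PDGF-AB treated small colonies and untreated large colonies for 18 of the 33 genes by the test of that difference in limma, and these genes are given here for a closer look. By the same test it differed for 34.4% of all genes and for 46.3% of those at or above the median level. Values are the log2 change in treated small colonies minus that in untreated large ones. Among growth arrest genes the difference was -2.50 for Btg2, -0.80 for Plk3, 1.30 for Gadd45a and 0.64 for Plk2. Among death receptors and apoptosis genes it was -1.20 for Fas, -0.81 for Tnfrsf10b, -0.51 for Eda2r, -0.36 for Ei24, -0.34 for Apaf1 and 0.44 for Perp, and the call for Perp did not hold after cyclic loess (adjusted p = 0.165). Among stress genes it was -0.65 for Dram1, -0.33 for Sesn1, 0.63 for Sesn2 and 0.25 for Trp53inp1. The remaining values were -0.56 for Ddb2, -0.42 for Polk, -0.38 for Pvt1 and 0.33 for Mdm4, whose call did not hold without large passage 5 replicate 1 or large passage 15 replicate 1 or treated small passage 5 replicate 3 or treated small passage 15 replicate 3 (adjusted p = 0.0672 to 0.0821). Treatment and colony type cannot be told apart in this difference.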

How the results depend on the processing

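No called difference reversed its direction in any alternative run, while 20 of 198 gene differences, none of them called, changed sign in at least 1. Of the called genes, 20 of 23 kept their call in every alternative in untreated large colonies over passage, 21 of 25 in treated small colonies over passage, 10 of 15 for PDGF-AB, 18 of 22 for large against small colonies, 19 of 22 at passage 15 and 16 of 18 for the difference of passage changes. In the comparison with PDGF-AB, leaving out 1 array of either group gave 2 to 4 higher genes in place of 5, and after cyclic loess its median change was -0.0074 in place of -0.09, a shift whose cause was not tested. With the replicate number as a block, the counts of higher and lower genes were 7 and 16 in untreated large colonies over passage, 7 and 18 in treated small colonies over passage, 4 and 11 for PDGF-AB, 7 and 14 for large against small colonies, 7 and 15 at passage 15, and 6 and 12 for the difference. The block ended the calls of Ercc5 with PDGF-AB (adjusted p = 0.0521) and Rps27l between colony types (0.0536), added Apaf1 with PDGF-AB (0.0391), and changed no other call. In untreated large colonies same-numbered arrays correlated at 0.208, 0.0984 and 0.202, and 6 of 6 arrays correlated best with their own number, a hint from the data and not from the design. Genes near the lower quartile of the arrays, such as Perp, have little signal over background.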
